A study of Mus musculus with 3 samples.

Results

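The genes described here build cholesterol and fatty acids: 19 enzymes of the sterol pathway and its isoprenoid branch, 6 regulators and sterol transport genes, and 8 fatty acid genes. These 33 members were chosen by name, as a list of mouse symbols matched to the Entrez Gene identifiers of the tables, by a rule that uses no measured value, though earlier results of these data were known when the list was made. All 33 had a row in each table, out of 17209 genes listed in at least 1 table, and all 33 passed the level filter that kept 12955 genes. The list does not hold the whole pathway. RNA-seq had been done on mouse epiblast stem cells (EpiSCs), pluripotent cells like those of the epiblast after implantation, of strain 129 and labelled passage 1. Routine culture was in serum on a gelatin coat, with IWR1, a tankyrase inhibitor that dampens Wnt signalling, and with Y27, a second inhibitor. There was 1 library for each of 3 groups. NT cells had been kept overnight without the inhibitors, IWR1 cells were collected after 12 h with 2 µM IWR1, and Y27 cells after 12 h with 0.5 µM Y27. All 3 groups share the earlier growth with both inhibitors, and NT is the group deprived of them, so treatment and withdrawal cannot be told apart.

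Cholesterol is built from acetyl-CoA through mevalonate, the isoprenoid diphosphates, squalene and lanosterol, and fatty acids are built from the same acetyl-CoA through malonyl-CoA. Both pathways are driven by the transcription factors SREBP1 and SREBP2, encoded by Srebf1 and Srebf2, which are made as membrane proteins and are escorted by Scap from the endoplasmic reticulum to the Golgi, where they are cut and released. When sterols are plentiful, Insig proteins hold Scap back, and the transcription of the enzyme genes goes down. Dividing cells, pluripotent ones included, use both pathways to make membranes.

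The estimated counts summed to between 5459332 and 5767550 per library. With 1 library per group no difference has a replicate check, no p-value was computed, and culture, extraction and sequencing of a library cannot be told apart from its treatment. All 7 EpiSC markers were found in every library, at a summed level of 3058 CPM (counts scaled to a common library size) in NT, 3308 in IWR1 and 2720 in Y27. Single markers went apart in IWR1 over NT: Fgf5 was 3.29-fold, Otx2 2.01-fold, Dnmt3b 1.98-fold and Sox2 1.65-fold higher, while Nanog was 1.31-fold, Lin28a 1.25-fold and Pou5f1 1.11-fold lower. Axin2, a Wnt target, was at 173, 39.5 and 167 CPM in NT, IWR1 and Y27, and Tagln, an actin regulator gene, at 244, 173 and 73.1 CPM. The Wnt target was low in the IWR1 library and Tagln was lowest in Y27. Of 8 fibroblast markers 7 were listed, with Lum absent, summing to 116 CPM in NT, 72.0 in IWR1 and 56.3 in Y27. Postn was at 0 in IWR1 and Dcn at 0 in Y27, both under the level filter. Most of the sum was Col1a1, at 82.2 CPM in NT, 54.7 in IWR1 and 31.0 in Y27. Pdgfrb was at 13.8, 1.97 and 12.0 CPM. Of 8 endoderm markers 5 were listed, with Afp, Ttr and Sox17 absent, at 47.0, 30.4 and 46.2 CPM, with Gata4 at 0 in IWR1. The nuclear RNAs Malat1 and Neat1, taken as signs of RNA quality, summed to 285, 675 and 909 CPM. Their part in the differences given here was not tested, and in bulk RNA fewer cells of a type and less RNA per cell cannot be told apart.

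Levels between genes were compared by the deposited FPKM, which is scaled to transcript length. Scd2, a desaturase gene that puts a double bond into saturated fatty acids, had the highest level of the 33, with 476 FPKM in NT, 394 in IWR1 and 434 in Y27. Fasn, which encodes fatty acid synthase, followed with 182, 187 and 150 FPKM, and Acly, which makes cytosolic acetyl-CoA from citrate, with 147, 140 and 118 FPKM. These held the first 3 places in every library. Among sterol enzymes Fdps, farnesyl diphosphate synthase, was highest in every library, with 137, 111 and 92.5 FPKM. At the low end Hsd17b7, a ketosteroid reductase of the late pathway, had 6.83, 4.13 and 7.23 FPKM, and Tm7sf2, a sterol reductase gene, 6.88, 8.16 and 6.91 FPKM. The pairs of related genes were unequal: by FPKM Scd2 exceeded Scd1 12.7-fold in NT, 9.56-fold in IWR1 and 13.3-fold in Y27, and Srebf2 exceeded Srebf1 1.69-fold, 1.91-fold and 1.54-fold. Insig1 exceeded Insig2 3.85-fold, 3.22-fold and 2.59-fold. The 33 members together held 0.823%, 0.790% and 0.712% of all counts in NT, IWR1 and Y27.

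**Figure D1:**
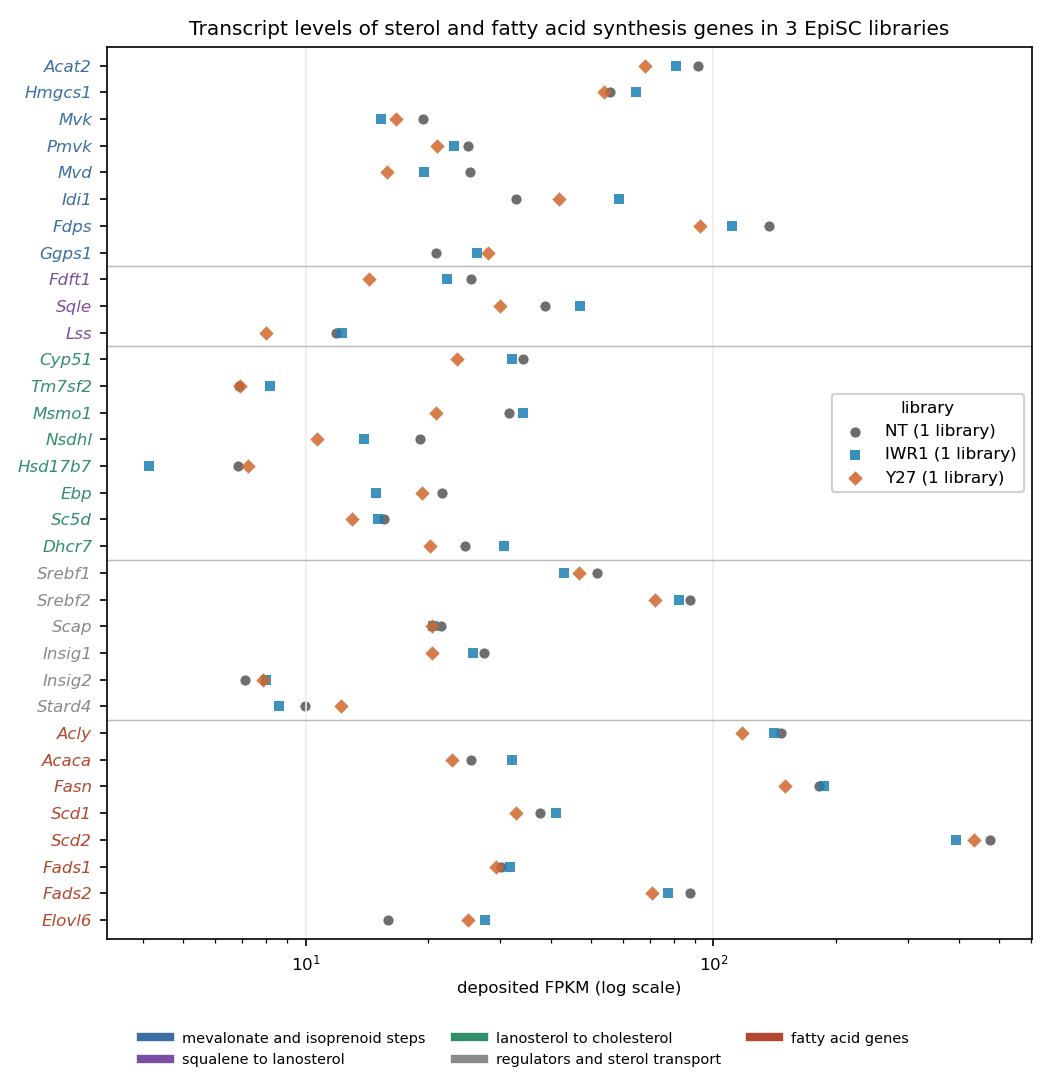
Deposited FPKM (log axis) of the 33 members in the NT (circles), IWR1 (squares) and Y27 (diamonds) libraries, 1 library each, with gene names coloured by step. Scd2 is highest at 394 to 476 FPKM, and the Y27 point lies to the left of NT for most genes and to its right for Idi1, Ggps1, Elovl6, Stard4, Insig2, Hsd17b7 and, by a small margin, Tm7sf2.

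The first comparison, Y27 over NT, asked how transcripts differed under Y27. Most of these genes were lower in the Y27 library, the sterol enzymes by most. By median on the log2 scale the genes from squalene to lanosterol (Fdft1, Sqle, Lss) stood lowest of the steps, at -0.62. Among single genes Nsdhl, Mvd, Msmo1 and Fdps nonetheless lay below Lss and Sqle. Of the 33 members 27 were below NT, where 51.8% of all genes compared and 55.6% of the 9429 genes at a mean of at least 10 CPM were, a level that all members reach. At least 1.5-fold lower were 7 members (21.2%), against 5.53% of all genes and 3.76% of those at 10 CPM or more. These 7 were Mvd, Fdps, Fdft1, Lss, Cyp51, Msmo1 and Nsdhl, all sterol enzymes. Cyp51, at -0.59 on the log2 scale, lay just past the threshold. With scaling by library total, or with FPKM, 4 members were at least 1.5-fold lower, against 4.48% and 5.67% of all genes. Elovl6 alone was at least 1.5-fold higher, against 14.9% of all genes and 12.7% of those at 10 CPM or more, at 0.58, also at the edge of the threshold. No member was 2-fold apart in either direction, against 1.34% of all genes lower and 5.58% higher. The median log2 difference, log2((CPM + 1)/(CPM + 1)), was -0.31 over the members, -0.34 over the 19 sterol enzymes and -0.24 over the 8 fatty acid genes. It was -0.02 over all genes compared and -0.05 over those at 10 CPM or more. The exact 95% interval of the fold, which covers counting error only, lay wholly below 1 for 20 members and wholly above 1 for 3, against 22.9% and 22.0% of all genes and 29.0% and 24.9% of those at 10 CPM or more. Summed over the 19 sterol enzymes the level was 1557 CPM in NT and 1208 CPM in Y27, 1.29-fold lower (1.25 to 1.33).

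The second comparison, IWR1 over NT, asked the same for the tankyrase inhibitor. Here the sterol enzymes lay on both sides of NT. The summed sterol enzymes were at 1565 CPM in IWR1, 1.01-fold the NT level (0.976 to 1.04), yet single enzymes ran from a log2 difference of -0.72 for Hsd17b7 to 0.81 for Idi1. Leaving out Idi1, chosen after seeing the data, gave 1395 CPM in IWR1 against 1459 in NT, lower by 1.05-fold (1.01 to 1.08). Of the 19 enzymes 11 were below NT, and the counting interval lay below 1 for 8 and above 1 for 5. Of the 33 members 19 were below NT, against 50.3% of all genes and 52.4% of those at 10 CPM or more. Hsd17b7 alone was at least 1.5-fold lower, against 6.37% of all genes and 3.99% of those at 10 CPM or more. Idi1 and Elovl6 were at least 1.5-fold higher, against 10.8% and 8.99%. No member was 2-fold apart, against 2.25% of all genes lower and 2.29% higher. The median was -0.09 over the members, -0.12 over the sterol enzymes and 0.03 over the fatty acid genes. It was 0.00 over all genes and -0.02 over those at 10 CPM or more. The counting interval of the fold lay below 1 for 13 members and above 1 for 7, where 19.1% and 20.3% of all genes, and 23.1% and 24.1% of those at 10 CPM or more, had such intervals. Both comparisons share the NT library, so their values stand side by side and are not independent.

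**Figure D2:**
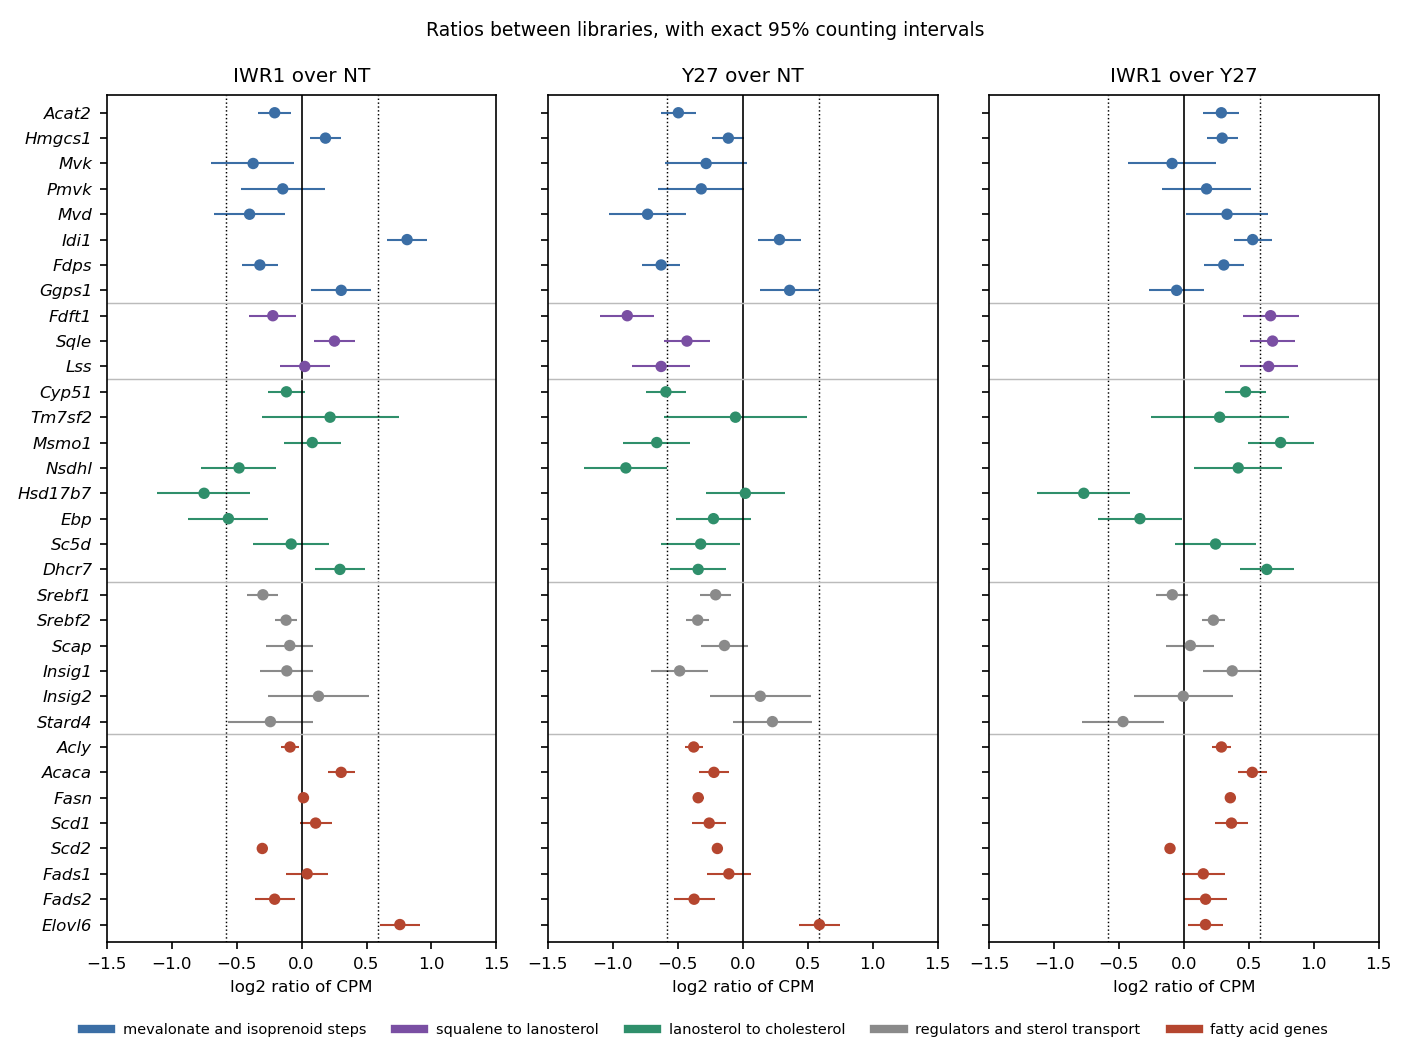
Log2 ratio of CPM without a pseudocount for each member in IWR1 over NT, Y27 over NT and IWR1 over Y27, coloured by step; bars are exact 95% counting intervals and dotted lines mark 1.5-fold. In the middle panel most points lie left of 0, with Fdft1 and Nsdhl lowest, and Idi1, Ggps1 and Elovl6 have intervals right of 0.

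The first enzymes of the pathway turn acetyl-CoA into mevalonate and then into activated isoprenoid units. Acat2, the thiolase that joins acetyl groups, was at 194 CPM in NT, 168 in IWR1 and 138 in Y27, 1.15-fold (1.06 to 1.26) and 1.41-fold (1.29 to 1.55) lower than NT. Hmgcs1, the synthase of the next step, was at 203, 230 and 188 CPM in NT, IWR1 and Y27, 1.14-fold higher in IWR1 (1.05 to 1.23) and 1.08-fold lower in Y27 (0.992 to 1.18). The IWR1 value of Hmgcs1 turned to the lower side, at -0.08 on the log2 scale, once the trend with transcript length and GC content described later was removed. Acat2 was thus highest in NT, and Hmgcs1 highest in IWR1 by CPM. Both kinases of the mevalonate steps were highest in NT. Mvk was at 33.8, 26.1 and 27.8 CPM, 1.30-fold (1.04 to 1.62) lower in IWR1 and 1.22-fold (0.979 to 1.51) lower in Y27. Pmvk was at 30.4, 27.5 and 24.4 CPM, 1.11-fold (0.885 to 1.38) and 1.25-fold (0.991 to 1.57) lower, with both intervals holding 1. Mvd, the decarboxylase that yields isopentenyl diphosphate, was at 45.3 CPM in NT, 34.3 in IWR1 and 27.2 in Y27. It was lower in both treated libraries, 1.32-fold (1.09 to 1.60) in IWR1 and 1.66-fold (1.35 to 2.05) in Y27.

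Idi1 (Entrez Gene 319554), the isomerase that balances the isoprenoid units, differed from these. It was at 97.1 CPM in NT, 171 in IWR1 and 118 in Y27, 1.76-fold (1.58 to 1.95) and 1.22-fold (1.08 to 1.36) higher. With the length and GC trend removed its log2 difference was 0.52 in IWR1 and turned to -0.14 in Y27. Fdps, which joins these units into farnesyl diphosphate, was at 175, 140 and 113 CPM, 1.25-fold (1.14 to 1.37) lower in IWR1 and 1.55-fold (1.40 to 1.71) lower in Y27. Ggps1 takes farnesyl diphosphate out of the sterol route to make the geranylgeranyl group that anchors proteins in membranes. Its level was 51.1 CPM in NT, 63.1 in IWR1 and 65.6 in Y27, 1.24-fold (1.05 to 1.45) and 1.28-fold (1.10 to 1.503) higher. By CPM the 2 synthases at this branch stood on opposite sides of NT, but with the length and GC trend removed Ggps1 was near NT, at 0.07 in IWR1 and 0.03 in Y27 on the log2 scale. The counts of Acat2, Idi1 and Ggps1 were partly fractional, as happens where reads fit several genes, and are less certain.

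The 3 enzymes that commit farnesyl diphosphate to sterols were all lower in Y27 and mixed in IWR1. Fdft1 (Entrez Gene 14137), squalene synthase, was at 97.3 CPM in NT, 83.4 in IWR1 and 52.5 in Y27, 1.17-fold (1.03 to 1.32) and 1.85-fold (1.60 to 2.14) lower. Sqle, squalene epoxidase, was at 109, 130.0 and 81.0 CPM, 1.19-fold higher in IWR1 (1.07 to 1.33) and 1.35-fold lower in Y27 (1.19 to 1.52). Lss, which closes the sterol rings to give lanosterol, was at 77.6 CPM in NT, 79.0 in IWR1 and 50.2 in Y27. NT and IWR1 lay together for Lss and Y27 lay 1.55-fold below NT (1.33 to 1.80). Together these genes summed to 284 CPM in NT, 292 in IWR1 and 184 in Y27, 1.55-fold lower in Y27 than in NT (1.43 to 1.67) and 1.03-fold the NT level in IWR1 (0.960 to 1.10). In the GRCm38 annotation the exons of Fdft1 overlap those of Ctsb, a protease gene on the opposite strand, by up to 774 bases. Ctsb was at 106, 94.1 and 77.6 CPM, and no source used here says whether the counting used strand, so the value of Fdft1 is less certain.

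Lanosterol is then trimmed and reduced to cholesterol. Cyp51, the demethylase that acts first, was at 153 CPM in NT, 141 in IWR1 and 101 in Y27, 1.08-fold (0.983 to 1.20) and 1.51-fold (1.35 to 1.68) lower. Msmo1, a methyl sterol oxidase, was at 58.7, 62.2 and 37.1 CPM, 1.06-fold higher in IWR1 (0.908 to 1.23) and 1.58-fold lower in Y27 (1.33 to 1.89). Both were near NT in IWR1 and below it in Y27. Nsdhl (Entrez Gene 18194), the dehydrogenase that works with Msmo1, was at 43.2 CPM in NT, 30.9 in IWR1 and 23.1 in Y27. It was lower in both, 1.40-fold (1.14 to 1.71) in IWR1 and 1.87-fold (1.502 to 2.33) in Y27, where Nsdhl and Fdft1 had the largest folds of the 33. Hsd17b7 was lowest in IWR1, with 32.2 CPM in NT, 19.1 in IWR1 and 32.6 in Y27. The IWR1 library was 1.68-fold lower than NT (1.32 to 2.16) and Y27 was 1.01-fold the NT level (0.821 to 1.25), though at -0.39 on the log2 scale with the length and GC trend removed. Ebp, a sterol isomerase, was likewise lowest in IWR1, at 38.6, 26.1 and 32.98 CPM in NT, IWR1 and Y27, 1.48-fold (1.19 to 1.84) and 1.17-fold (0.956 to 1.43) lower. Sc5d, a sterol desaturase, was at 35.9, 33.9 and 28.7 CPM, 1.06-fold lower in IWR1 (0.864 to 1.30) and 1.25-fold lower in Y27 (1.01 to 1.55). Dhcr7, the reductase of the last step to cholesterol, was at 71.6 CPM in NT, 87.9 in IWR1 and 56.5 in Y27. It was 1.23-fold higher in IWR1 (1.07 to 1.40) and 1.27-fold lower in Y27 (1.09 to 1.47), so that NT lay between the treated libraries. Tm7sf2 was the least abundant by CPM, at 10.4, 12.1 and 10.04 CPM, and its intervals of 0.809 to 1.68 in IWR1 over NT and 0.709 to 1.53 in NT over Y27 do not resolve a difference at 56 to 68 counts. The counts of Cyp51, Hsd17b7 and Sc5d were partly fractional, and so was that of Lss in Y27. Exons of Cyp51 overlap by up to 166 bases those of Akap9 on the other strand, which was at 49.2, 87.2 and 113 CPM.

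On the log2 scale the regulators spanned a narrower range than the sterol enzymes in both comparisons. Their median was -0.17 in Y27, against -0.34 for the sterol enzymes, while in IWR1 both medians were -0.12. Srebf2, the main activator of sterol genes, was at 413 CPM in NT, 380.0 in IWR1 and 325 in Y27, 1.09-fold (1.02 to 1.15) and 1.27-fold (1.20 to 1.35) lower. Srebf1, which favours fatty acid genes, was at 229.8, 187 and 199 CPM, 1.23-fold (1.13 to 1.34) lower in IWR1 and 1.16-fold (1.07 to 1.25) lower in Y27. NT was highest for both, and the lower of the treated libraries was Y27 for Srebf2 and IWR1 for Srebf1. Scap was at 92.7, 87.0 and 84.1 CPM, with both intervals against NT holding 1. Insig1, which holds Scap back and is itself a target of SREBP, was at 74.8 CPM in NT, 69.1 in IWR1 and 53.4 in Y27, 1.08-fold (0.941 to 1.25) and 1.40-fold (1.20 to 1.63) lower. Insig1 thus lay with the enzymes in Y27, while its relative Insig2 was at 19.1, 20.9 and 21.0 CPM with intervals that held 1. Stard4, which carries cholesterol between membranes and is a known SREBP2 target, was at 30.6, 25.9 and 35.8 CPM. Its Y27 value was 1.17-fold above NT with an interval that held 1 (0.951 to 1.44), and at -0.07 on the log2 scale with the length and GC trend removed. None of these 6 genes was 1.5-fold apart in either comparison. Of all genes 6.37% were lower and 10.8% higher by that much in IWR1, and 5.53% and 14.9% in Y27. With only 6 genes, a count of none cannot be set apart from these shares.

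Fatty acid genes were lower in Y27 by smaller folds than the sterol enzymes, on larger counts. Acly was at 668 CPM in NT, 628 in IWR1 and 514 in Y27, 1.06-fold (1.02 to 1.11) and 1.30-fold (1.24 to 1.36) lower. Fasn was at 1869, 1888 and 1473 CPM, 1.01-fold the NT level in IWR1 (0.983 to 1.04) and 1.27-fold lower in Y27 (1.23 to 1.31). For both, Y27 was the library apart. Acaca, the carboxylase that makes malonyl-CoA, was at 239, 295 and 205 CPM, 1.23-fold higher in IWR1 (1.15 to 1.33) and 1.17-fold lower in Y27 (1.08 to 1.26). Scd1 was at 187, 202 and 156 CPM, 1.08-fold higher in IWR1 (0.990 to 1.17) and 1.20-fold lower in Y27 (1.09 to 1.31). Scd2 was at 2681 CPM in NT, 2173 in IWR1 and 2341 in Y27, 1.23-fold (1.20 to 1.26) and 1.15-fold (1.12 to 1.17) lower. Scd1 and Scd2 thus lay on opposite sides of NT in IWR1, but with the length and GC trend removed Scd1 was at -0.02 on the log2 scale, and both have partly fractional counts. Among the desaturases of polyunsaturated fatty acids Fads1 was at 108, 111 and 100.02 CPM with both intervals holding 1, and Fads2 at 134, 116 and 103 CPM, 1.15-fold (1.04 to 1.28) lower in IWR1 and 1.30-fold (1.16 to 1.45) lower in Y27. Elovl6 (Entrez Gene 170439), which lengthens palmitate to stearate, was at 98.0 CPM in NT, 166 in IWR1 and 148 in Y27. NT was the lowest of the 3, by 1.69-fold (1.52 to 1.88) and 1.51-fold (1.35 to 1.68). Elovl6 was under 1.5-fold in both with the length and GC trend removed, at 0.44 and 0.10 on the log2 scale, and in Y27 also with a pseudocount of 5 CPM or upper quartile scaling. Its counts, like those of Fads2, were partly fractional.

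**Figure D3:**
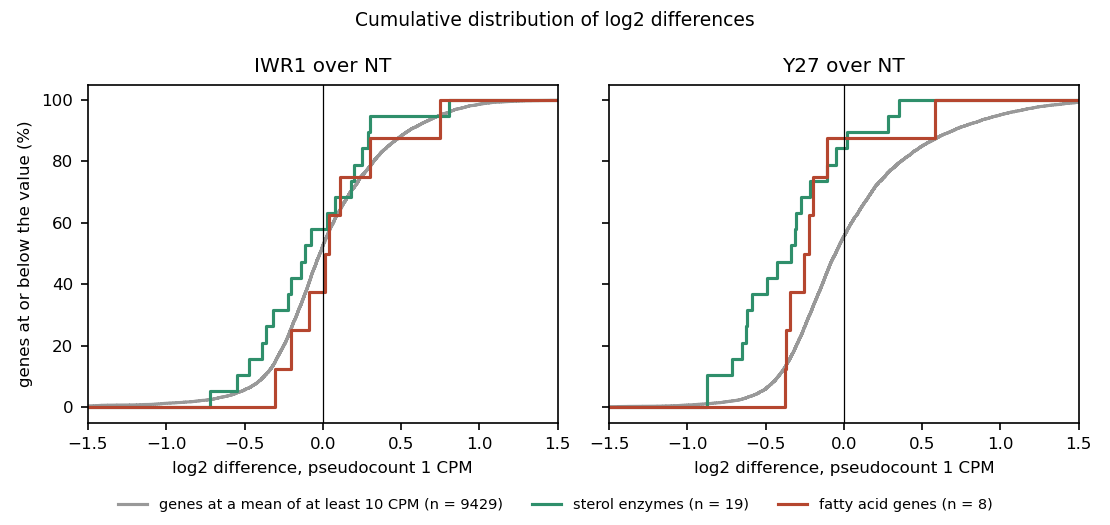
Cumulative share of genes (%) against the log2 difference with a pseudocount of 1 CPM, for the 19 sterol enzymes, the 8 fatty acid genes and the 9429 genes at a mean of at least 10 CPM, in IWR1 over NT (left) and Y27 over NT (right). In Y27 over NT both gene groups run to the left of those 9429 genes over most of the range, with medians of -0.34 and -0.24 beside -0.05. In IWR1 over NT they run close to the 9429 genes, with medians of -0.12 and 0.03 beside -0.02.

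Set against each other, the treated libraries differed most by median in the 3 genes from squalene to lanosterol. Their median in IWR1 over Y27 was 0.66 on the log2 scale. It was 0.33 for lanosterol to cholesterol, 0.29 for the mevalonate and isoprenoid steps, 0.23 for the fatty acid genes and 0.02 for the regulators. In IWR1 over Y27, 25 of the 33 members were above 0, where 49.9% of all genes and 47.4% of those at 10 CPM or more were below it, and the median was 0.29 beside 0.00 over all genes. At least 1.5-fold higher in IWR1 were 5 members, against 5.06% of all genes and 2.77% of those at 10 CPM or more: Fdft1 by 1.59-fold (1.37 to 1.84), Sqle by 1.61-fold (1.43 to 1.81), Lss by 1.57-fold (1.35 to 1.83), Msmo1 by 1.68-fold (1.41 to 2.00) and Dhcr7 by 1.56-fold (1.35 to 1.80). All 3 genes from squalene synthase to lanosterol synthase were among them. With the length and GC trend described later removed, 7 members were at least 1.5-fold higher, against 5.34% of all genes with a GC value. Idi1, at 0.65 on the log2 scale, and Acaca, at 0.63, joined the 5. Hsd17b7 alone was at least 1.5-fold lower in IWR1 than in Y27, by 1.71-fold (1.34 to 2.19), against 8.2% of all genes and 4.83% of those at 10 CPM or more. The counting interval lay above 1 for 20 members and below 1 for 4, against 16.3% and 16.1% of all genes and 19.9% and 17.8% of those at 10 CPM or more. Stard4 was 1.38-fold (1.11 to 1.73) and Ebp 1.26-fold (1.01 to 1.58) lower. The inhibitors were used at different doses, so these values do not compare matched doses.

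The promoters of the members were searched for known motifs, which the rule for the list did not use. Promoter sequences from RefSeq (GRCm38.p6), reaching 250 bases before and 50 after the start, were found for 26 of the 33 members. None was found for Fdps, Fdft1, Sqle, Stard4, Scd1, Scd2 and Fads1. Of these, Fdps and Fdft1 are among the members at least 1.5-fold lower in Y27. The promoters of the 26 members were searched on both strands for 3 motifs. These were TCACNCCAC, the core of the sterol regulatory element that SREBP binds, CCAAT, bound by NF-Y, and GGGCGG, bound by Sp1. NF-Y and Sp1 are partners of SREBP at known target genes. CCAAT was found in 21 of 26 members (80.8%), against 43.3% of the 10287 genes compared that have a promoter in the table and 37.4% of all 32851 promoters. GGGCGG was found in 21 of 26 members (80.8%) too, against 70.1% of the genes compared and 35.7% of all promoters. It thus set the members apart from the genes compared by less than CCAAT did. The sterol regulatory core was found in Hmgcs1 alone (3.85% of members), against 1.37% of the genes compared and 1.24% of all promoters. With at most 1 letter different, a looser search chosen after seeing the data, it was in 11 of 26 members (42.3%), against 29.1% of the genes compared. A match describes these letters only. Members without CCAAT in the window were Acat2, Scap, Acaca, Fads2 and Elovl6.

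Shown next are the 250 bases before the start, 5′ to 3′ in the direction of transcription, with matches to the 3 motifs on either strand in capitals. Hmgcs1 (chr13:119690101-119690350 on the plus strand) is shown for the sterol regulatory core, TCACCCCAC, which lies 137 to 129 bases before the start. Mvd (chr8:122443423-122443672 on the minus strand), Lss (chr10:76531355-76531604 on the plus strand), Msmo1 (chr8:64733579-64733828 on the minus strand) and Nsdhl (chrX:72918271-72918520 on the plus strand) were chosen after their values were seen, as members at least 1.5-fold lower in Y27 that hold CCAAT and GGGCGG without that core.
Hmgcs1: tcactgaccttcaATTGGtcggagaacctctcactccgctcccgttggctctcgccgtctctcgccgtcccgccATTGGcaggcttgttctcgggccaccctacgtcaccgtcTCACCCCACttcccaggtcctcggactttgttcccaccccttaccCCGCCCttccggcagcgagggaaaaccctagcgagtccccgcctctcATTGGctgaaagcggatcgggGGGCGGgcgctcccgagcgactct
Mvd: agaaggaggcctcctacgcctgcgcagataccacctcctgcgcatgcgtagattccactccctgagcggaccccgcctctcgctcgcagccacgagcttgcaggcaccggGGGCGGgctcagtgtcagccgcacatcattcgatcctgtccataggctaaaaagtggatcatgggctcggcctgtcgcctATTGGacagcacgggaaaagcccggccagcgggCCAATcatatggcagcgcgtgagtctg
Lss: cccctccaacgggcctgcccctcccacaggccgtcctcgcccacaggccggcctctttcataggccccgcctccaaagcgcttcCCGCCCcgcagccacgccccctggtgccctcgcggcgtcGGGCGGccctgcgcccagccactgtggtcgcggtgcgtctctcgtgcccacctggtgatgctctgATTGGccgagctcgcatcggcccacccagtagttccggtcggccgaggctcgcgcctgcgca
Msmo1: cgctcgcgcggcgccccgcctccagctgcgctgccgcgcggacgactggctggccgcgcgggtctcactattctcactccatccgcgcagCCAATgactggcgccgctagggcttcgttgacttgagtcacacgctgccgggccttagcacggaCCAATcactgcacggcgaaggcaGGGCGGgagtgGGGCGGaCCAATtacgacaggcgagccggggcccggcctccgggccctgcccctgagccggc
Nsdhl: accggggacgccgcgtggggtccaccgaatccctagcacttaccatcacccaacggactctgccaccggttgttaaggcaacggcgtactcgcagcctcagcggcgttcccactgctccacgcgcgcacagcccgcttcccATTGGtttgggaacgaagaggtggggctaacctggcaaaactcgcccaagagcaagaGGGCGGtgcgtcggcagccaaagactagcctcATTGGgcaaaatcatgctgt
The opposite-strand matches read as ATTGG and CCGCCC, and no matches overlapped in these 5 stretches. Idi1 and Cyp51 also hold CCAAT and GGGCGG in their windows, and neither holds the sterol regulatory core. Cyp51 thus meets the same condition and is not shown. Hsd17b7 and Tm7sf2 hold both motifs too, at 0.02 and -0.05 in Y27 over NT on the log2 scale. Taking all windows of a gene together, so do Hmgcs1, Mvk, Ebp, Sc5d, Dhcr7, Srebf1, Srebf2, Insig1, Insig2 and Acly. Like Idi1, none of these was at least 1.5-fold lower in Y27. Whether the motifs go with lower values in Y27 was not tested.

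Of 48 other genes of the pathways, in lists of sterol handling, the isoprenoid branch and fatty acid metabolism, 47 passed the level filter and Thrsp was not listed. By median they lay nearer to all genes than the members did, at -0.02 in IWR1 over NT and -0.06 in Y27 over NT. At least 1.5-fold lower were 0 in IWR1 and 1 (2.13%) in Y27, against 6.37% and 5.53% of all genes. At least 1.5-fold higher were 4 (8.51%) and 5 (10.6%), against 10.8% and 14.9%. In Y27 over NT the counting interval lay below 1 for 17 of the 47 (36.2%) and above 1 for 10 (21.3%). Of all genes 22.9% and 22.0% had such intervals, and of those at 10 CPM or more 29.0% and 24.9%. The genes named next are those with the largest differences. Acsl4, which couples long polyunsaturated fatty acids to coenzyme A, was at 35.6 CPM in NT, 94.0 in IWR1 and 58.3 in Y27, 2.64-fold (2.24 to 3.13) and 1.64-fold (1.37 to 1.96) higher. Acacb, the mitochondrial relative of Acaca, was at 2.48, 5.72 and 5.38 CPM, and Elovl7, an elongase gene, at 2.07, 4.50 and 5.97 CPM. Both were low and above NT in each treated library, with intervals of 1.20 to 4.68 and 1.12 to 4.43 for Acacb and of 1.02 to 4.60 and 1.40 to 5.93 for Elovl7. Pggt1b, a subunit of the enzyme that attaches the geranylgeranyl group, was at 13.8 CPM in NT, 15.7 in IWR1 and 30.7 in Y27, 2.23-fold higher in Y27 (1.69 to 2.94). Mylip, a ubiquitin ligase gene induced by liver X receptors when sterols are plentiful, was at 6.69, 4.68 and 2.40 CPM, 2.79-fold lower in Y27 (1.503 to 5.90) on 13.38 estimated counts there. Pggt1b, Mylip and Elovl7 had partly fractional counts.

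Removing the trend of log2 difference with transcript length and GC content over all genes altered several members. The 33 members had a median length of 2883 bases and GC content of 49.5%, close to the 2886 bases and 50.5% of the genes compared. Their groups differed in length, with medians of 2249 bases for the sterol enzymes and 5148 bases for the fatty acid genes. With this cubic trend removed, 29 of 33 members were below NT in Y27, with a median of -0.34. Of them 5 were at least 1.5-fold lower: Fdft1, Lss, Cyp51, Msmo1 and Nsdhl. Over the 12453 genes with a GC value the median was then -0.03, and 5.15% were at least 1.5-fold lower. Mvd moved from -0.71 to -0.47 and Fdps from -0.62 to -0.41. Genes of low GC content that had stood above NT in Y27 came near or below it. Idi1, with a GC content of 41.9%, moved from 0.28 to -0.14, Ggps1 (42.4%) from 0.35 to 0.03 and Elovl6 (44.0%) from 0.58 to 0.10. Hmgcs1 (43.1%) moved from -0.11 to -0.49 and Hsd17b7 (43.9%) from 0.02 to -0.39. In IWR1 over NT Idi1 and Elovl6 kept positive values of 0.52 and 0.44, under 1.5-fold, and Hsd17b7 moved from -0.72 to -0.99.

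**Figure D4:**
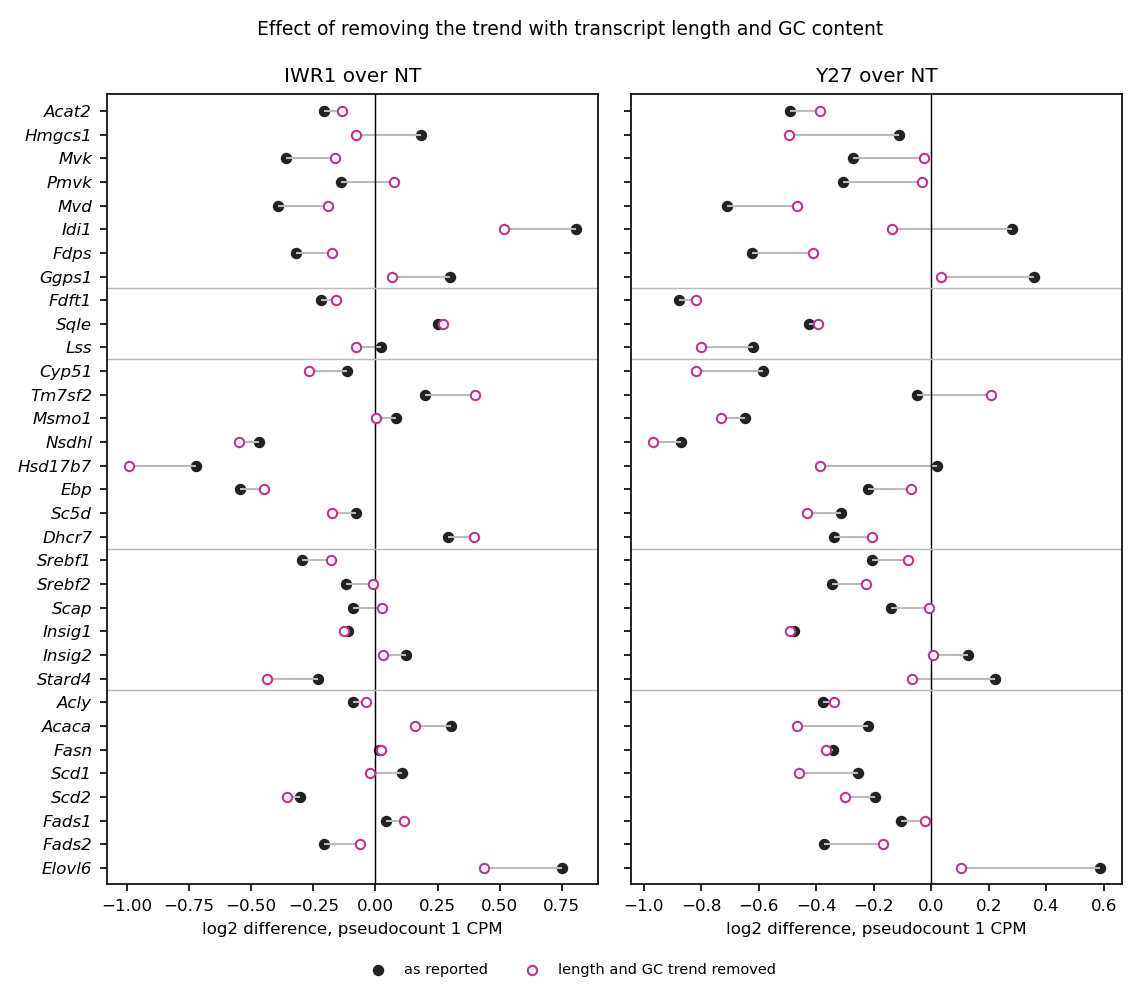
Log2 difference of each member with a pseudocount of 1 CPM, as reported (filled) and with the trend in transcript length and GC content removed (open), in IWR1 over NT (left) and Y27 over NT (right). The filled points of Idi1, Ggps1 and Elovl6 in Y27 lie at 0.28, 0.35 and 0.58 and their open points at -0.14, 0.03 and 0.10, while Fdft1 and Nsdhl stay below -0.8.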

How the data were processed

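RNA-seq tables of 3 mouse EpiSC libraries (NT, IWR1, Y27) were used, grouped by their labels. Per the file headers, a table row holds 1 Entrez gene with its length, expected count and FPKM. Expected counts were deposited without normalization. The authors' FPKM divides the count by transcript length and library size: for genes over 50 counts it was recomputed to within 2% for 94.0%, 93.9% and 93.8% of genes in NT, IWR1 and Y27. The submitters' processing notes name Bowtie 0.12.2 and mm8. The counting tool and strand setting are not given in the sources used here.

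Genes missing from a table were taken as 0. Symbols came from RefSeq (GRCm38.p6, 99.7% of 17209 identifiers) and GC content from GENCODE transcripts (96.1% of genes compared), another build than the files', so only promoters, read from GRCm38.p6, have coordinates. CPM values use library sizes multiplied by TMM factors (edgeR 4.0.16, R 4.3.3; DESeq2 1.42.0 size factors as an alternative). Genes averaging 1 CPM or more over the libraries were compared on a log2 scale after adding 1 CPM, at a threshold of 1.5-fold. Intervals of folds are exact conditional binomial 95% intervals of rounded counts. All members are named, and of the other pathway genes the 3 with the largest absolute difference in each of IWR1 and Y27 over NT. The members and lists were chosen with earlier results of these data known. The steps were tested on simulated data. Figures used matplotlib 3.10.9, and other steps scipy 1.17.1, pandas 2.3.3 and numpy 2.4.6 under Python 3.11.15.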

Additional observations from a re-analysis of the deposited data

How the results depend on the processing

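Depth limits the low members: at 56 to 68 counts, the interval of Tm7sf2 reached 1.68-fold. The other settings were a pseudocount of 0.1 or 5 CPM, scaling by DESeq2 size factors, upper quartile or library total, FPKM, no filter on level, a filter at 5 CPM, removal of the length and GC trend, and whole counts only. Across them the members' median stayed between -0.37 and -0.25 in Y27 and between -0.13 and -0.06 in IWR1, and that of the sterol enzymes between -0.40 and -0.28 and between -0.18 and -0.09. The fatty acid median stayed between -0.32 and -0.18 in Y27, and in IWR1 it crossed 0 with upper quartile scaling, at -0.015. The numbers past 1.5-fold were less stable. Members lower in Y27, 7 as reported, numbered 4 with scaling by library total and 4 with FPKM. Members higher in Y27, 1 as reported, numbered 0 with a pseudocount of 5, with upper quartile scaling, with the trend removed and with whole counts only. In IWR1, the 1 lower member became 2 with upper quartile scaling and 0 with whole counts only, and the 2 higher members became 0 with the trend removed and 0 with whole counts only, where 22 members were left. At a threshold of 2-fold all 4 numbers were 0. No member past 1.5-fold changed sign in any setting. No paired analysis was possible because each group had 1 library, and for the same reason no replicate could be left out.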
